A study of Drosophila melanogaster with 2 samples.

Results

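Bowl peaks between divergent gene starts were the pooled peaks whose summit, the highest point of the peak, lay between the start of a gene read leftward and the start of a gene read rightward, with at most 1000 bp between the starts. There were 306 such peaks, called divergent peaks from here on, among 2198 pooled peaks, or 13.9% (95% Wilson interval 12.5 to 15.4), and they fell in 288 gene pairs with 575 genes. Among pooled peaks, which had already passed the calling threshold, members were chosen by position alone. Starts were those of all protein-coding transcripts in the Ensembl annotation. The summit also had to lie within 500 bp of a start, a condition that the 1000 bp limit already met for all 306. The measurements came from chromatin immunoprecipitation and sequencing of whole Drosophila melanogaster embryos collected at 0 to 24 hours, from transgenic flies that made Bowl fused to eGFP, precipitated with an antibody to GFP. The 2 biological replicates formed 1 group, and no second genotype or treatment was compared. Embryos were pooled across all stages and tissues, so a peak did not show in which cells or at which stage the protein was present.

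Bowl belongs to the odd-skipped family of zinc finger proteins that bind DNA, and is known for its part in patterning the gut, the segments and the leg joints of the fly. Divergent gene pairs share a short stretch of DNA from which transcription runs outward in both directions, and in the compact fly genome many such pairs hold genes used by most cells. Promoters of this kind are often bound by DREF, M1BP and BEAF-32, factors of housekeeping promoters and domain borders, whereas GAGA factor is better known at developmentally regulated promoters.

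The sequences of strong divergent peaks are shown first, because the short words discussed below can be read in them. Each is given on the plus strand of dm6, strictly between the starts and free of annotated exons, either as the whole interval or as up to 100 bp either side of the summit. Capitals mark words searched on both strands, so a word may stand as its reverse complement: GGGCGTA may stand as TACGCCC. For ACAGTGG the reverse complement is CCACTGT. The other words are the odd-skipped core, CAGTAGC, which may stand as GCTACTG. They also include the homeodomain word TAATTA and the TATA word TATAAA, with the DREF word TATCGATA.
Ugalt/eIF2Bbeta (chrX:2703853-2703981): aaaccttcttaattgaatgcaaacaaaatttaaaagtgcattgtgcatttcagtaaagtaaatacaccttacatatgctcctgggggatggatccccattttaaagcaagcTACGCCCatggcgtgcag
CG5611/Mtl (chr3R:27636061-27636261): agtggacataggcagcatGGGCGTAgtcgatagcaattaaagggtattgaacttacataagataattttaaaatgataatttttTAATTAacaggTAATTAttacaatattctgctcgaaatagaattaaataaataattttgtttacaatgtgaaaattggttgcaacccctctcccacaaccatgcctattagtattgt
Tcs5/CHMP2B (chr3L:5139396-5139618): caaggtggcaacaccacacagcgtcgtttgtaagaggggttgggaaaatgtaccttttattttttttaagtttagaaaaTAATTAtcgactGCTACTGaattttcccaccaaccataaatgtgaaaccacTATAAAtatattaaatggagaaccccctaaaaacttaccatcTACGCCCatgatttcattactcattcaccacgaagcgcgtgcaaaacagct
fws/Lamtor3 (chr2L:17481030-17481230): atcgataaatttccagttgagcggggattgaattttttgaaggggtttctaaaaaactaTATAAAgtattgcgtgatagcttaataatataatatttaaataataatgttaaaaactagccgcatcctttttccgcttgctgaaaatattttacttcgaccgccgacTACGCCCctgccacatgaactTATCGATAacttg
mRpS23/CenG1A (chr2L:13835361-13835561): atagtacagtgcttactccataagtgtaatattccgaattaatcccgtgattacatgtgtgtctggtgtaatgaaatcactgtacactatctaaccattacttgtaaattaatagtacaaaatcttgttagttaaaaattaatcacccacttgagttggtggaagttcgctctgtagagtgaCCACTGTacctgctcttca
alphaCOP/CG13919 (chr3L:1645200-1645466): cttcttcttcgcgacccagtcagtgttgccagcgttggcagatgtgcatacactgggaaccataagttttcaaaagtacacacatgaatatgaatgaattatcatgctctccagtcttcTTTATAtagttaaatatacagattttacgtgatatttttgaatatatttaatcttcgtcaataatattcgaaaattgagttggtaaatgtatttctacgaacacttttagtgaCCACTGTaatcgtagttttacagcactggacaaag
The pairs in the next lines hold ribosomal protein genes, or show the closest pair and a strong peak with none of these words. Capitals mark the words CGCAGCCA and CCAACTTC, which share bases where they overlap.
l(1)G0320/RpS28b (chrX:9554489-9554622): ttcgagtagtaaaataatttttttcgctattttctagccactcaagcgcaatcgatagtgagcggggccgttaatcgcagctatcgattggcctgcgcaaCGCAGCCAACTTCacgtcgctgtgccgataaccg
Rok/RpS19a (chrX:16637779-16637893): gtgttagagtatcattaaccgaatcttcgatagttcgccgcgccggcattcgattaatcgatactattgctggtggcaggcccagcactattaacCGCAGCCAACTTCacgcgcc
Dref/RpL13 (chr2L:9967230-9967312): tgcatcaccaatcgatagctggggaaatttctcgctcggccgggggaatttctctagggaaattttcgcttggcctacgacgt
Art3/mRpS10 (chr3R:15229409-15229664): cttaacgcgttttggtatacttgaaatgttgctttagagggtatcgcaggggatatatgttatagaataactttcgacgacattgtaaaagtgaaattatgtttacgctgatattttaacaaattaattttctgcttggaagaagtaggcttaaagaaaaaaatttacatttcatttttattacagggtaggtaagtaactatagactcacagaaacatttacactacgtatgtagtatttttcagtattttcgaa

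Candidates between divergent starts were called as peaks more often than other promoter candidates. Of all 132019 ranked pooled candidates 1.66% were called; of 1575 candidates between divergent starts 306 were called, 19.4% (17.5 to 21.5), against 771 of 18086 other candidates within 500 bp of a start, 4.26% (3.98 to 4.57). The difference was 15.2 percentage points (Newcombe interval 13.3 to 17.2). Candidates between divergent starts all lay upstream of both starts of their pair, while the others lay on either side of a start. The share called among other upstream candidates alone was not computed, so side of the start and divergence cannot be told apart here. In the lists made from 1 replicate alone the difference was 11.2 points in replicate 1 and 11.1 points in replicate 2, with 15.2% and 12.9% of candidates between divergent starts called. A called candidate had an irreproducible discovery rate, the authors' measure of agreement between ranked lists, of 0.01 or less. All intervals here cover counting error only, since candidates are not replicates of a condition. The control library was not analysed here, so signal that any precipitation gives at open promoters was not separated from that of Bowl.

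**Figure D1:**
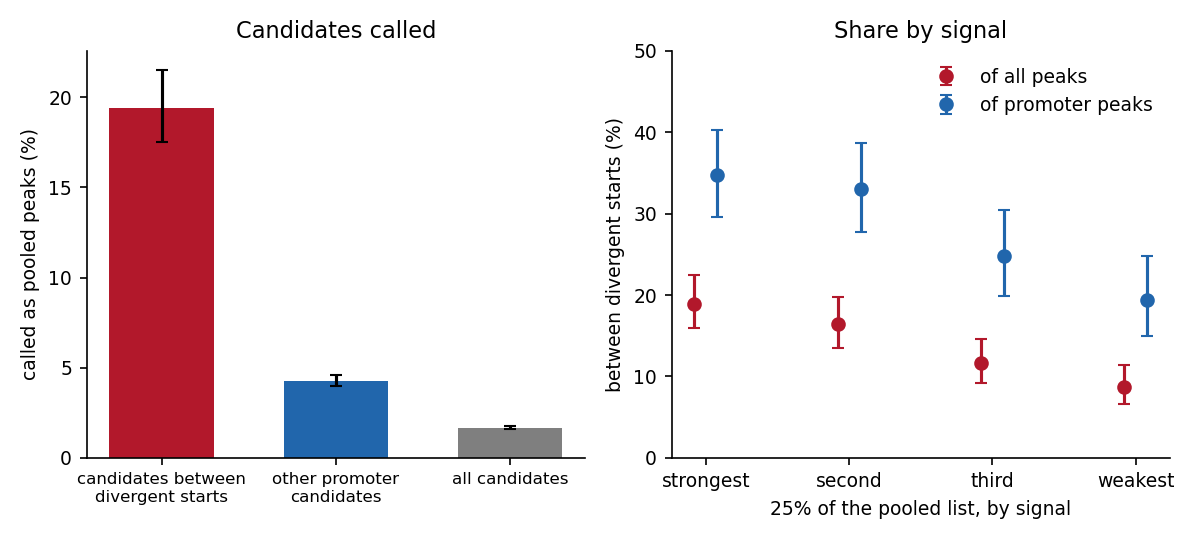
Left, share of candidates called as pooled peaks (%), for candidates between divergent starts, other promoter candidates and all candidates. Right, share of pooled peaks that lay between divergent starts (%), by 25% of the list from strongest to weakest, of all peaks and of promoter peaks; bars and whiskers are shares and 95% Wilson intervals, and the divergent share falls from the strongest to the weakest peaks.

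Divergent peaks were more frequent among strong peaks. They made up 18.9% (15.9 to 22.4) of the strongest 25% of pooled peaks, 16.4% of the next, 11.7% of the next and 8.73% (6.65 to 11.4) of the weakest 25%, and 5 of the 10 strongest. Among promoter peaks alone the shares were 34.8%, 33.0%, 24.8% and 19.4% in the same order. The median signal, the authors' score with no stated scale, was 98.6 at divergent peaks (89.7 to 106), against 81.8 (78.7 to 84.3) at the 771 other promoter peaks. Set against the 498 other promoter peaks upstream of their nearest start, where the median was 94.4 (86.0 to 98.6), the intervals overlapped.

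The strongest divergent peak lay between Ugalt, a UDP-galactose transporter gene, and eIF2Bbeta, which encodes a subunit of the exchange factor of translation initiation (chrX:2703746-2704012). Its signal was 887 in the pooled list, the second highest of all peaks, with 551 in replicate 1 and 340.5 in replicate 2, and its summit lay 29 bp from the Ugalt start. The next lay between PNPase, a mitochondrial polynucleotide phosphorylase gene, and Gprk2, a G protein-coupled receptor kinase that acts in Hedgehog signalling (chr3R:31404537-31404782; signal 725, with 445 in replicate 1 and 288 in replicate 2). After these came the pair of mRpL41, a mitochondrial ribosomal protein gene, and CG8079 (chr2R:15217627-15217884), with 412 and 310.1 in replicates 1 and 2. All 15 strongest were in the own lists of both replicates, with pooled signals between 383 and 887. A mitochondrial ribosomal protein gene was in 4 of the 15 pairs, a count made after the names were seen. Among them were CIA30, a complex I assembly factor gene (686, with 377 and 327 in replicates 1 and 2), the Rac-like GTPase gene Mtl beside CG5611 (617, with 349 and 259), Chro, a chromodomain protein gene, beside the TFIIH subunit gene Ssl1 (544, with 339 and 199), the ESCRT-III gene CHMP2B beside Tcs5 (539, with 312 and 226) and PolD2, a DNA polymerase delta subunit gene (429, with 234 and 192).

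Of the 2521 annotated divergent gene pairs, 288 had a peak between their starts, 11.4% (10.2 to 12.7). In 1002 pairs only failing candidates lay there, and in 1231 there was no candidate at all. By replicate the share was 8.85% in replicate 1's own list and 5.83% in replicate 2's, which held fewer peaks. Among the 9052 protein-coding genes in no such pair, 583 had a promoter peak, 6.44% (5.95 to 6.96), but a pair offers 2 starts and a gene often 1, so those shares are not on the same footing. The arms held 64 (2L), 58 (2R), 66 (3L), 83 (3R) and 35 (X) divergent peaks; 8.16% of pairs on X had a peak and 10.9% to 12.6% of those on the other large arms. The small chromosome 4 had 0 peaks in 11 pairs.

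Pairs with a peak were most frequent where the closest starts lay 200 to 300 bp apart. Pairs whose closest starts lay 200 to 300 bp apart had a peak in 18.6% of cases (15.4 to 22.2), against 9.40% (7.50 to 11.7) at 200 bp or less, 10.9% (8.64 to 13.6) at 300 to 500 bp and 8.66% (6.73 to 11.1) at 500 to 1000 bp. At 200 bp or less 70 pairs had a peak, but only 28 divergent peaks lay in intervals that short. Most of those 70 pairs thus had their peak between starts farther apart than their closest ones. Over all pairs the median distance between the closest starts was 277 bp (quartiles 205 and 452) in the 288 pairs with a peak, against 305 bp (quartiles 158 and 516) in the 2233 without. Measured between the starts on either side of the summit, which need not be the closest of the pair, the median distance was 320 bp at divergent peaks (299 to 356), against 487 bp (463 to 511) at the 1260 candidates between divergent starts that failed the threshold. A wider interval offers more room for a candidate, so that comparison also carries the chance of having any candidate. By the same measure the closest starts were those of Dref, which encodes the DREF factor, and the ribosomal protein gene RpL13, 84 bp apart with a signal of 70.8. Just inside the limit were hts and CalpA (999 bp), Gnpat and CG5112 (994 bp) and Pax and Lectin-galC1 (977 bp), with signals of 77.5, 83.2 and 67.4. Just outside it were Eno and Rrp40 (1015 bp), SLC5A11 and CG8419 (1039 bp) and CG5823 and P5cr-2 (1098 bp), with 206, 149 and 70.8.

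**Figure D2:**
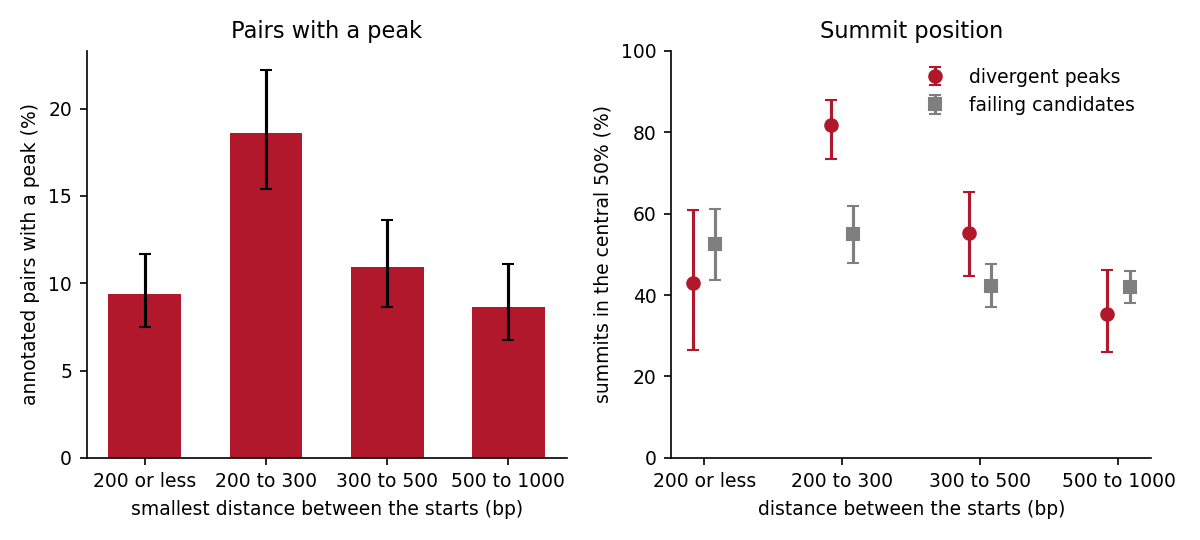
Left, share of annotated divergent pairs with a peak (%), by the smallest distance between their starts (bp). Right, share of summits in the central 50% of the interval (%), for divergent peaks and failing candidates, by distance between the starts; whiskers are 95% Wilson intervals, and divergent pairs and peaks are highest at 200 to 300 bp in both panels. The distance on the right is between the starts on either side of the summit, which need not be the closest of the pair.

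Summits of divergent peaks lay near the centre of intervals of 200 to 300 bp, by the distance between the starts on either side of the summit. In intervals of 200 to 300 bp, 89 of 109 summits lay in the central 50%, 81.7% (73.4 to 87.8), against 104 of 189 failing candidates, 55.0% (47.9 to 61.9). In the 28 divergent peaks at 200 bp or less the share was 42.9% (26.5 to 60.9), against 52.5% (43.6 to 61.2) of failing candidates. Over 500 bp the shares were 35.4% (25.9 to 46.2) and 42.0% (38.1 to 45.9). Across all intervals they were 58.2% and 45%, a difference of 13.2 points (6.93 to 19.2). The median distance to the nearer start of the pair was 97 bp (quartiles 60.2 and 127). It was 87 bp (quartiles 40 and 163) at failing candidates and 176 bp at other promoter peaks upstream of a start. A nearer start was by rule at most 50% of the interval away, while other upstream peaks could lie up to 500 bp from theirs. The contrast with other upstream peaks is thus partly set by the rule.

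A band of 75 to 150 bp from the nearer start held 150 of 306 divergent summits, 49.0% (43.5 to 54.6), against 27.9% (25.5 to 30.4) of failing candidates and 24.9% (21.3 to 28.9) of other upstream promoter peaks. The rule itself keeps divergent summits nearer to a start than other upstream peaks need be. Failing candidates met the same rule, but in wider intervals, with a median of 487 bp against 320 bp. The bounds of that band were set after the distances were seen. Its share followed the signal, with 68.8% (57.8 to 78.1) of the strongest 25% of divergent peaks, 50.6% and 46.1% of the middle ones and 30.3% (21.1 to 41.3) of the weakest 25%. Of the 15 strongest, 13 lay in it; the exceptions were Ugalt/eIF2Bbeta at 29 bp and Mnat9/CG1792 at 21 bp. In 40 of 306 cases another annotated start lay closer to the summit than either start of the pair.

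**Figure D3:**
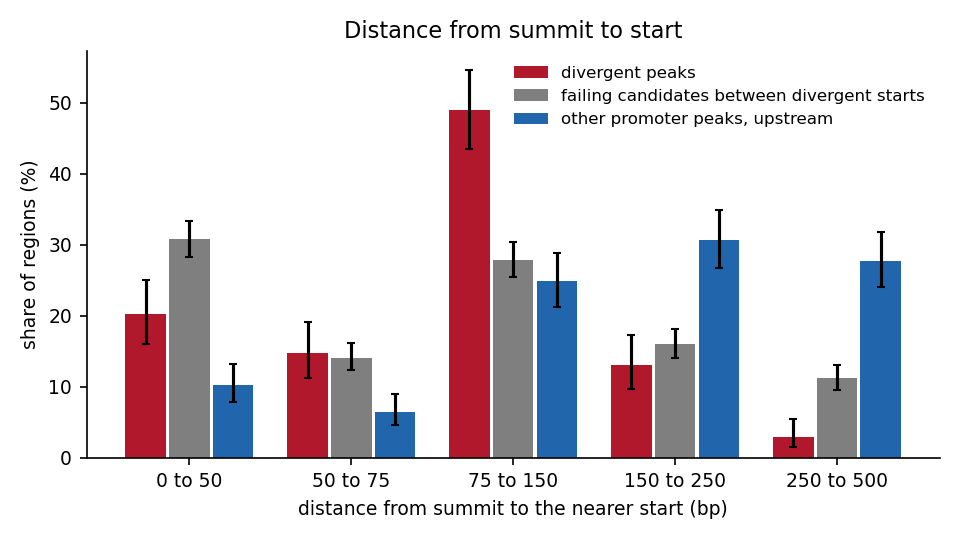
Share of summits (%) by distance to the nearer start (bp) for divergent peaks, failing candidates between divergent starts and other promoter peaks upstream of a start, with 95% Wilson intervals. Divergent peaks are concentrated at 75 to 150 bp.

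Divergent summits were poor in G and C. Within 50 bp of the summit the median G and C content was 30.7% (29.7 to 33.7), against 39.6% (39.6 to 40.6) at failing candidates between divergent starts and 35.6% (33.7 to 37.6) at other upstream promoter peaks. The low content was local: the mean was 32.8% at the summit and 45.9% and 46.9% at 300 bp on its left and right, where most windows had passed the starts, while failing candidates had 40.2% at the summit. A local dip was also present at other upstream promoter peaks, from 43.9% at 150 bp on the left to 36.4% at the summit. The median at divergent peaks was lower than at failing candidates at each distance between starts, with 37.1% (27.7 to 45.5) against 46.0% (43.6 to 47.5) at 200 bp or less, where the intervals overlapped, 26.7% (25.7 to 29.7) against 34.7% (33.7 to 36.6) at 200 to 300 bp, 30.7% (28.7 to 34.7) against 36.6% (35.6 to 37.6) at 300 to 500 bp, and 36.6% (34.7 to 41.6) against 42.6% (41.6 to 43.6) at 500 to 1000 bp. Within 200 bp of the summit the medians were 37.5% (36.4 to 38.4) and 38.9% (38.4 to 39.4). Base composition can also change how well fragments are amplified and mapped, which was not tested.

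**Figure D4:**
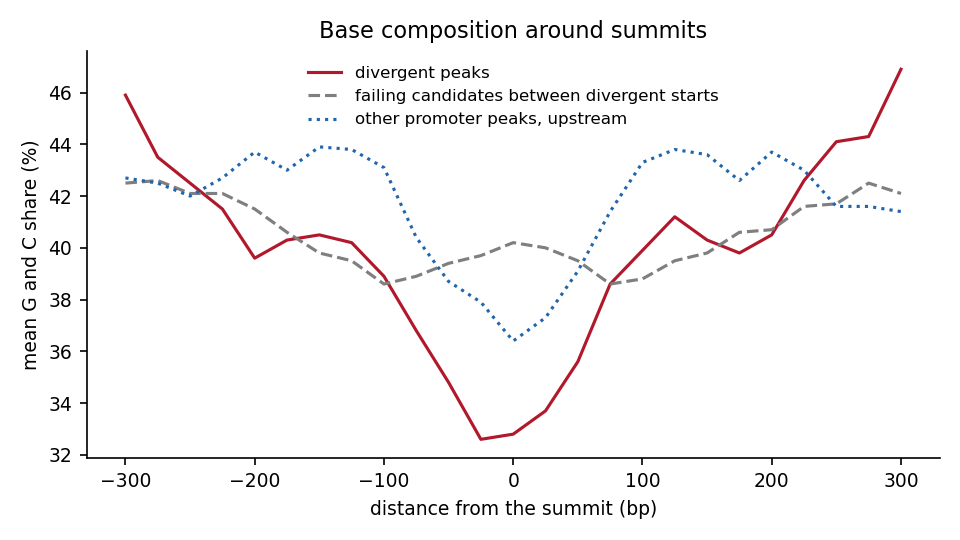
Mean share of G and C (%) in bins of 25 bp by distance from the summit (bp), for divergent peaks, failing candidates between divergent starts and other promoter peaks upstream of a start. The divergent peaks dip to 32.8% at the summit and the other upstream promoter peaks to 36.4%. The failing candidates do not dip there.

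Words of housekeeping promoters were no more frequent at divergent peaks than at failing candidates between divergent starts. The DREF word TATCGATA lay within 100 bp of 24 of 306 divergent summits, 7.84% (5.33 to 11.4), against 8.49% (7.08 to 10.2) of failing candidates between divergent starts, a difference of -0.65 points (-3.67 to 3.18). It lay at 2.08% (1.28 to 3.34) of other promoter peaks and 0.446% of all 128710 failing candidates with a sequence available. The M1BP word GGTCACACT was at 3.59% of divergent peaks, 4.29% of failing divergent candidates, a difference of -0.69 points (-2.71 to 2.21), and 1.56% of other promoter peaks. The short BEAF-32 word CGATA, which lies within the DREF word, was less frequent, at 36.9% (31.7 to 42.5) of divergent peaks and 43.4% (40.7 to 46.2) of failing divergent candidates, a difference of -6.48 points (-12.4 to -0.318), and at 25.9% (23.0 to 29.1) of other promoter peaks.

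Repeat-like words found at other promoter peaks were scarce. The GAGA factor word GAGAGAG lay at 4 divergent summits, 1.31% (0.509 to 3.31), against 10.5% (8.53 to 12.9) of other promoter peaks, a difference of -9.20 points (-11.7 to -6.39). AGAGAGCG, which overlaps it, had 0.654% against 6.74%, and the CA repeat CACACACA 0.654% against 7.65%. At failing divergent candidates these words were also uncommon, at 3.02%, 0.873% and 3.57%, and over all failing candidates they were at 2.78%, 0.974% and 5.26%. The CTCF word AGGTGGCGC was at 0 of 306 divergent summits, which allows a share of up to 0.980% by a limit of 3 counts and up to 1.24% by the Wilson interval, and at 0.556% of failing divergent candidates.

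AT-rich words were common. TATAAA was within 100 bp of 138 divergent summits, 45.1% (39.6 to 50.7), against 29.4% (26.9 to 31.9) of failing divergent candidates and 14.1% of all failing candidates, and TAATTA was at 21.2% (17.0 to 26.2) against 15.3% (13.4 to 17.4) and 9.34%. Among windows at or under 34.8% G and C, the median of divergent peaks, TATAAA had 52.8% against 48.7% of failing divergent candidates, with the interval of the difference spanning zero (-4.94 to 13.1), and above it 36.6% against 20% (8.68 to 25.1). For TAATTA both differences spanned zero. Copies of TATAAA lay at a median of 74.5 bp from the summit on either side.

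The word ACAGTGG lay within 100 bp of 25 divergent summits, 8.17% (5.59 to 11.8), against 3.97% (3.02 to 5.19) of failing divergent candidates, a difference of 4.20 points (1.35 to 7.94). Other promoter peaks had 7.78%, all pooled peaks 10.3% and all failing candidates 2.90%. Among windows at or under 34.8% G and C the word was at 8.70% of divergent peaks against 2.66% of failing divergent candidates (difference 2.03 to 11.5). Above it the shares were 7.59% and 4.60%, and the interval of the difference spanned zero (-0.696 to 8.60). Read along the word, the summit lay downstream in 35 of 44 copies within 200 bp, at a median offset of 83 bp (quartiles 21 and 108), and 20 of the 44 copies ran in the direction of the nearer gene. Within 50 bp of the summit the shares were 1.31% and 1.75%. It was picked from a ranking of words over all pooled peaks, these 306 among them, so its share is a description. In the mRpS23/CenG1A and alphaCOP/CG13919 stretches the word stands as CCACTGT to the right of the summit. The odd-skipped core CAGTAGC was at 6 divergent summits, 1.96% (0.902 to 4.21), against 1.43% of failing divergent candidates and 1.90% of all failing candidates; Tcs5/CHMP2B was the strongest with it.

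The E-box form CAGCTG, which reads the same on both strands, was more frequent at divergent peaks than at failing divergent candidates in the widest window tried. Within 200 bp it was at 118 of 306 divergent summits, 38.6% (33.3 to 44.1), against 22.1% (19.9 to 24.5) of failing divergent candidates and 24.4% (21.5 to 27.5) of other promoter peaks. Within 100 bp the shares in the same order were 15% (11.5 to 19.5), 13.2% and 10.4%, and within 50 bp they were 4.90%, 6.19% and 4.54%. Of its 146 copies within 200 bp, 95 lay between the starts, at a median of 116 bp from the summit over all copies. The width was singled out after its values were seen, and a window of that width more often passes the starts where they lie close together, which was not tested. For the remaining words the interval of the difference from failing divergent candidates within 100 bp held 0. Zelda's CAGGTAG was at 0.980% of divergent summits against 1.11%, Pangolin's CTTTGAT at 1.96% against 3.25%, the initiator TCAGTT at 11.8% against 12.6% and CTTTTT, a form of the TCT initiator, at 28.4% against 26.3%.

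GGGCGTA, chosen after a ranking of words in the divergent peaks was seen and so given with no test, was at 14 divergent summits, 4.58%, against 0.714% of failing divergent candidates, 2.46% of other promoter peaks and 1.46% of all failing candidates. Read along the word the summit lay downstream in 16 of 17 copies within 200 bp, at a median of 77 bp (quartiles 58 and 86). The peaks with it included Ugalt/eIF2Bbeta, CG5611/Mtl, Tcs5/CHMP2B and fws/Lamtor3, and their median signal was 139. Of the 306 peaks, 39 had GGGCGTA or ACAGTGG within 100 bp, and 0 had both wholly inside that window. With words this infrequent few peaks would hold both in any case, and neither count was set against failing candidates. The whole interval of RpL34b/CG8132 held both words, with GGGCGTA farther than 100 bp from the summit.

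Genes of the cytoplasmic ribosome stood out among the lists. Of 53 cytoplasmic ribosomal protein genes in annotated divergent pairs, 27 had a divergent peak, 50.9% (37.9 to 63.9), against 575 of 4934 genes in such pairs, 11.7% (10.8 to 12.6). Whether the high share was particular to divergent pairs was not tested. Of all 86 such genes, in a pair or not, 42 had a promoter peak of any kind, 48.8%, against 9.23% of all protein-coding genes. The 42 overlap the 27 genes with a divergent peak, and the share among such genes outside pairs was not computed. The 28 divergent peaks at ribosomal protein genes were of ordinary strength, with signals between 6 and 192 and a median of 88.3, and 12 were in the own lists of both replicates. The strongest lay between Ripalpha and RpL7 (192, with 113 in replicate 1 and 79.3 in replicate 2), RpL32 and CG7943 (185, with 102 and 86.9) and RpS27 and Nup37 (177, with 80.8 and 97.1). Their summits lay closer to a start than those of the other peaks, at a median of 46 bp, with 5 of 28 in the band of 75 to 150 bp.

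Some of these 28 peaks held the words CCAACTTC and CGCAGCCA, both also chosen after the ranking. CCAACTTC was within 100 bp of 10 divergent summits, 3.27%, against 0.317% of failing divergent candidates and 0.930% of all failing candidates, and 8 of the 10 peaks were at ribosomal protein genes. Its copies lay at a median of 19.5 bp from the summit, nearer than those of GGGCGTA. CGCAGCCA was at 13 divergent summits, 4.25%, against 0.714% of failing divergent candidates and 1.14% of all failing candidates, with 6 at ribosomal protein genes. At l(1)G0320/RpS28b and Rok/RpS19a both words run together across the summit, as printed.

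Mitochondrial ribosomal protein genes had a divergent peak in 10 of 58 cases, 17.2% (9.64 to 28.9), with a median signal of 199. RNA polymerase subunit genes had 5 of 18 (12.5 to 50.9%), among them Polr2B beside 140up (55.1 in replicate 1 and 53.0 in replicate 2) and Polr2H beside CG11247 (110.2, with 75.5 and 35.6). Aminoacyl-tRNA synthetase genes had 4 of 23, the strongest at GluProRS and AP-1sigma, a clathrin adaptor subunit (107, with 51.4 and 53.7). Respiratory chain and ATP synthase genes had 5 of 45, led by ND-ASHI (145, with 91.7 and 46.4), and Mediator and general transcription factor genes 4 of 36, led by the TFIID subunit gene Taf5 (137, with 108 and 30.3). Vesicle transport and V-ATPase genes had 10 of 82, led by Vha16-5 (149, with 85.8 and 65.0), and translation factors 3 of 29. Splicing genes had 3 of 28, replication and repair genes 1 of 24, cell cycle genes 2 of 26 and chaperone genes 2 of 19, the strongest at Hsp83 (142, with 104 and 33.2). The Polycomb and trithorax list had 2 of 17, at brm, the ATPase of the SWI/SNF remodeller (334, with 201 and 133), and E(z), the methyltransferase of Polycomb repressive complex (103, with 63.4 and 43.6). For each of these lists but the RNA polymerase subunits the interval held the 11.7% of all pair genes, and for the RNA polymerase subunits it overlapped the interval of all pair genes. Proteasome subunit genes had 0 of 26, which allows up to 11.5% by a limit of 3 counts and up to 12.9% by the Wilson interval. Of the patterning, Hox and odd-skipped family list only 3 of 40 genes lay in a divergent pair at all and 0 had a divergent peak. With 3 genes that allows a share of up to 56.1% by the Wilson interval, so the 0 says little. A promoter peak of any kind was at 11 of the 40, 27.5%, against 9.23% of all protein-coding genes.

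Divergent peaks were found in both replicates more often than other promoter peaks. In the own lists of both replicates were 132 of 306, 43.1% (37.7 to 48.7), against 217 of 771, 28.1% (25.1 to 31.4), a difference of 15 points (8.65 to 21.4). Against other upstream promoter peaks alone, at 34.7%, the difference was 8.4 points (1.48 to 15.3). It varied with signal: in the strongest 25% of the pooled list the shares were 93.3% and 89.2%, in the next 33.3% (24.5 to 43.6) and 18.0% (13.1 to 24.2), and below the median few peaks of either kind were in both. Replicate 1's own list held 74.5% of divergent peaks and replicate 2's 49.3%, while 19.3% were in neither and were called from the pooled reads.

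Of 304 divergent peaks with a candidate in each replicate, 259 had the higher signal in replicate 1. The median was 59.9 in replicate 1 and 41.6 in replicate 2, and the 2 signals had a Spearman correlation of 0.628 over the 304 peaks, a description without a test. The largest gaps in rank were at weak peaks, such as Snapin/Tnpo-SR (50.3 in replicate 1 and 12.7 in replicate 2) and Nup98-96/mbc (15.3 in replicate 1 and 44.6 in replicate 2). Most failing candidates between divergent starts had far lower signal, with a median of 24.9 (quartiles 14.8 and 37.4), against quartiles of 74.4 and 141 at divergent peaks. The calling threshold rests on ranked lists, so this gap is largely set by the call and is not a result about divergent pairs. The ranges still overlapped: the strongest failing candidate, between Uba2 and Cds, had 91.9, above all of the weakest 25% of divergent peaks.

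**Figure D5:**
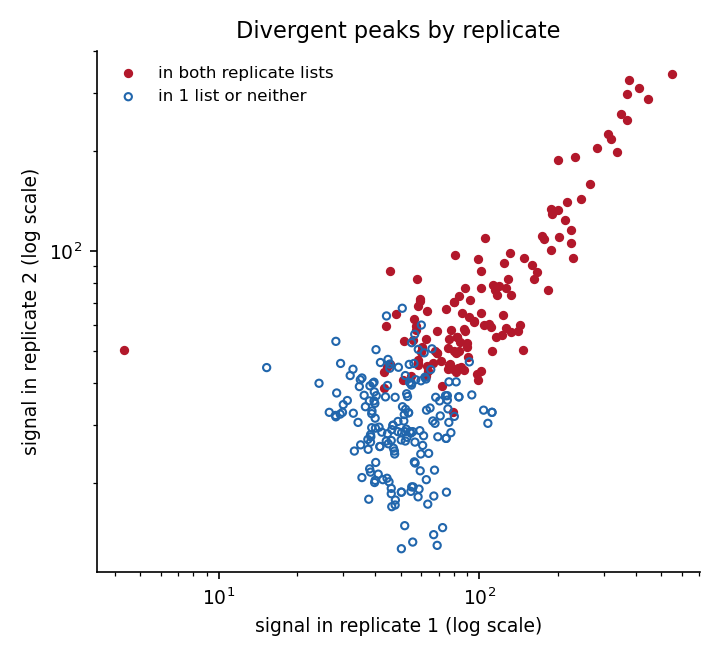
Signal in replicate 1 against signal in replicate 2 for the divergent peaks, both on log scales; filled points are in the own lists of both replicates. The strong peaks lie in a narrow band and the weak ones spread.

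Some intervals held more than 1 call. In 17 pairs there were 2 or more divergent peaks, and 11 divergent peaks had a signal under 30, all 11 of which overlapped a stronger peak. An example is CG12093/Atg2, with calls of 97.4 and 2.95 in the same interval. Separate strong calls were seen at Ac78C/chb (161 and 140.2) and Trmt6/Ent2 (244 and 111). The replicate values of an overlapping weak call can be those of the stronger candidate, as at CG12093/Atg2, where both calls have 74.7 in replicate 1 and 27.3 in replicate 2. One pair, pre-mod(mdg4)-E and pre-mod(mdg4)-AD (signal 128), is annotated as separate genes but belongs to the trans-spliced mod(mdg4) locus.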

How the data were processed

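Per the labels, the authors sheared chromatin to 200 to 800 bp, precipitated Bowl-eGFP with an antibody to GFP and aligned reads to dm6; neither aligner nor peak caller is named in the sources used here. Deposited were lists of candidate regions with a signal score and −log10 irreproducible discovery rates, made by the authors per replicate and on pooled reads, and a summit offset in bp. They hold no read counts, so depth is unknown. Replicate 1 had 1662 peaks of 102124 candidates and replicate 2 had 772 of 106305. A value of 2 in the −log10 rate was the threshold in the deposited lists; 89 candidates past it were missing from the pooled list, 9 of them between divergent starts, and were left out.

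Starts came from Ensembl release 115 and sequence from RefSeq's copy of the same assembly, whose coordinates are those of dm6. Failing candidates meeting the same positional rule were the background. Shares have 95% Wilson intervals, differences Newcombe intervals and medians order-statistic intervals; no p-value was computed. Replicate values are the strongest overlapping candidate of that replicate, and 1 bp of overlap counted as shared. Named pairs were the 15 strongest, up to 3 per gene list, those at the limits, those with repeated calls, the 5 with the largest gaps in replicate rank and the 10 strongest failing candidates, of which the text gives the informative ones. Members, the 15 gene lists and the 16 words were chosen with earlier results of these data known; 3 words were added after a ranking. The rules were checked on simulated data. Python 3.11.15 was used with numpy 2.4.6, pandas 2.3.3 and scipy 1.17.1. Alternatives changed the distances, the starts, the list, the windows, the background and the replicates.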

Additional observations from a re-analysis of the deposited data

How the results depend on the processing

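Every alternative tried kept the sign of 4 differences: the share called, the share in both replicate lists, the central share and the G and C content. With starts at most 500 bp apart, 10.2% of pooled peaks were divergent, 25.6% of such candidates were called, 21.0 points above other promoter candidates, the median distance between starts was 274 bp and 66.5% of summits lay in the central 50%. With 1 start per gene 9.24% of peaks were divergent and 8.62% of pairs had a peak. In the conservative list the values were 16.7% divergent, 16.9% called, 9.84% of pairs, a median signal of 108, a median signal percentile of 56.2 (63.4 in the pooled list), 50% in both replicate lists and a difference of 7.56 points there. With only the stronger 50% of peaks they were 17.7% divergent, 7.62% of pairs, a signal of 125, a percentile of 52.7 and 65.5% in both lists. A reciprocal overlap of 50% left 36.9% in both lists.

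Leaving out 1 replicate gave 14.3 to 19.4% of peaks divergent, 12.9 to 15.2% of candidates called, differences of 11.1 to 11.2 points, 5.83 to 8.85% of pairs, median signals of 58.8 to 68.4 (on each replicate's own scale), percentiles of 52.3 to 59.1, median distances of 297 to 306 bp, and differences in the central share of 13.7 to 19.4 points. The ACAGTGG difference from failing candidates was -0.439 points with 50 bp either side of the summit, in place of 100 bp. With windows of 50 bp either side of the summit, the G and C difference from failing candidates lay between -9.90 and -7.92 points under every alternative to the choice of peaks, starts or background. Wider windows, added after seeing the data, gave medians of 34.8% at 100 bp and 37.5% at 200 bp, and differences of -3.98 and -1.37 points. The ribosomal protein pairs and the weak overlapping calls were each left out as alternatives chosen after seeing the data, and none of these results moved beyond its interval. No paired analysis was possible because there was 1 group. Depth and the control were not analysed here.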
